A study of Mus musculus with 27 samples.

Results

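Immediate early genes are switched on within minutes of a stimulus, before any new protein is made, and the heat shock and stress genes described with them respond when cells are heated, handled or starved. Here 33 such genes were followed, of 30735 genes in the deposited table of estimated counts. They were chosen by name, as genes known to respond to neuronal activity or to the dissociation of tissue, and the counts of all transcripts of a gene were added. By role they are 8 AP-1 and small Maf subunits, 3 EGR zinc finger factors, 2 genes of neuronal activity, 10 early response and feedback genes, 5 heat shock genes, 2 genes of the endoplasmic reticulum (ER) and integrated stress responses, and 3 Gadd45 genes.

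The study asked which genes are linked to the transcription factors Brn3a (Pou4f1) and Brn3b (Pou4f2) in retinal ganglion cells, the output neurons of the retina, in C57Bl/6 mice. Every retinal mouse carried 1 allele of either gene replaced by alkaline phosphatase (AP). In KO mice the other allele was null (Brn3a AP/KO or Brn3b AP/KO), and in HET mice it was intact (Brn3a AP/WT or Brn3b AP/WT), so the HET controls also lack 1 working copy. Retinas were dissociated, AP-positive cells were pulled out with antibody-coated magnetic beads (called RGC here), and the unbound cells were kept as supernatant (SN). RGC libraries came in pairs, 12 in all. At postnatal day 3 (P3) the groups were Brn3b KO, Brn3b HET, Brn3a KO and Brn3a HET, and at embryonic day 15 (E15) they were Brn3b KO and Brn3b HET. SN had 1 library for each of the same 6 groups. The 9 brain libraries were from wild-type C57Bl/6 mice labelled P3, whose eyes had been injected soon after birth with a fluorescent cholera toxin B tracer: 3 of superior colliculus (SC), 3 of lateral geniculate nucleus (LGN), 2 of the pooled rest of the brain (entered as whole brain) and 1 of pretectal area (PTA). Brain tissue was cut out in cold buffer and lysed without dissociation into cells. No label says whether replicates came from separate animals, so p-values measure the spread between these libraries, which may be technical. In every test the SN libraries of an age formed a single group across genotypes and, at P3, across lines. Spread among SN libraries may therefore also hold differences of genotype and line. RGC and SN libraries were fitted as independent groups, although SN cells are those left over from the capture of RGC cells. The main fits model no pairing of RGC with SN libraries.

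Fos and Jun proteins pair to form AP-1, EGR proteins bind GC-rich promoter sites, and both are made when growth factor, calcium or stress signals reach existing transcription factors at their genes. A further set of early genes ends the response: Zfp36 degrades AU-rich mRNAs, Dusp proteins remove phosphate from MAP kinases, and Nfkbia and Socs3 restrain NF-kappaB and cytokine signalling. In brain and retina, enzymatic dissociation is known to raise many of these transcripts, in neurons and strongly in microglia.

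All values are CPM, counts scaled to a fixed library size, by TMM within the 18 retinal libraries and, separately, within the 9 brain libraries. The retinal libraries held 28905675 to 37394655 estimated counts and the brain libraries 10122962 to 13769685. Pou4f1 was 10.97 and 16.7 CPM in Brn3a KO RGC libraries, against 444 and 486 CPM in Brn3a HET RGC libraries, and Pou4f2 was 18.6 and 21.0 CPM at P3 in RGC libraries of Brn3b KO mice, against 190.5 and 289 CPM in Brn3b HET RGC libraries. These levels went with the titles, by which libraries were grouped; the genotype entry of Brn3a KO RGC replicate 2 names Brn3b instead, and the source names of the Brn3b and E15 libraries name Brn3a or P3. Of 15 ganglion cell markers, 15 were higher in RGC than in SN at P3, and of 12 progenitor and Mueller glia markers, 12 were lower; at E15, 7 of the ganglion cell markers were higher and 1 lower. The RGC libraries also carried markers of microglia and macrophages: the summed level of 14 such genes was 1143 to 4333 CPM in the 8 RGC libraries at P3, against 8.65 to 29.3 CPM in the 4 SN libraries, and 776 to 1141 CPM in the 4 RGC libraries at E15, against 9.57 and 10.7 CPM in the 2 SN libraries. In SN at E15, 2 of the 14 (Trem2 and Lyz2) were at 0 in both libraries, and brain libraries summed to 175 to 291 CPM. In these bulk libraries, fewer cells of a type and less RNA per cell cannot be told apart.

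Retinal libraries held far more RNA of most AP-1 and EGR genes than brain libraries (heat map of all 33 genes). Ranges overlapped in Fosl2, Jund and Egr3. Median Fosl2 was 9.20 CPM in retina and 13.4 CPM in brain, Jund 60.05 and 40.5 CPM, and Egr3 14.96 and 0.345 CPM. In 16 of 33 genes (48.5%) every one of the 18 retinal libraries was above every one of the 9 brain libraries; the same held for 12.2% of 14522 genes that averaged 1 CPM or more. No member was below brain in every retinal library, which held for 10% of those genes. Per transcript length (TPM, described below) Junb overlapped (2.33 to 87.9 TPM in retina and 0.570 to 3.39 TPM in brain) and Hsp90aa1 did not, and the other members stood as they do in CPM. Tissue, preparation, read length and instrument all differ between retina and brain, so they cannot be told apart here and no test was made.

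Fos, the founding AP-1 subunit, ranged over 119.8 to 496 CPM (median 207) in the 18 retinal libraries, against 2.465 to 6.91 CPM (median 4.62) in the 9 brain libraries. Fosb, its close relative, ranged over 100.6 to 254.5 CPM (median 170.4) in retina and 0 to 1.07 CPM (median 0.329) in brain. Egr1, a zinc finger factor, ranged over 126 to 741 CPM (median 423) in retina and 4.86 to 33.8 CPM (median 11.3) in brain. None of these ranges overlapped, and in each gene SN libraries as well as RGC libraries were above every brain library. Btg2, an antiproliferative early gene, was likewise 129.7 to 505 CPM (median 288) in retina, against 4.03 to 12.2 CPM (median 7.81) in brain.

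The other genes above brain throughout were Jun, Junb, Atf3, Maff, Egr2, Ier2, Ier5, Zfp36, Dusp1, Socs3, Atf4 and Gadd45a. On the CPM scale the heat shock genes did not follow them. Hspa1a, an inducible HSP70 gene, was 0.482 to 10.4 CPM (median 1.41) in retina, against 4.22 to 12.2 CPM (median 10.1) in brain, and Hspb1, the small heat shock protein HSP27, was 0.279 to 28.2 CPM (median 2.10) in retina, against 1.81 to 26.2 CPM (median 4.34) in brain. Dnajb1, an HSP40 cochaperone, was 52.6 to 94.05 CPM in retina and 42.9 to 70.0 CPM in brain. Hsp90aa1, the stress-inducible HSP90, was 1118 to 1962 CPM in retina and 1150 to 1575 CPM in brain. That overlap depends on the scale, as Hsp90aa1 was 1578 to 2456 TPM in retina and 863 to 1195 TPM in brain. In CPM both tissues overlapped in all 5 heat shock genes, in Arc and Npas4, and in Dusp2, a MAP kinase phosphatase with medians of 7.38 CPM in retina and 8.59 CPM in brain.

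**Figure D1:**
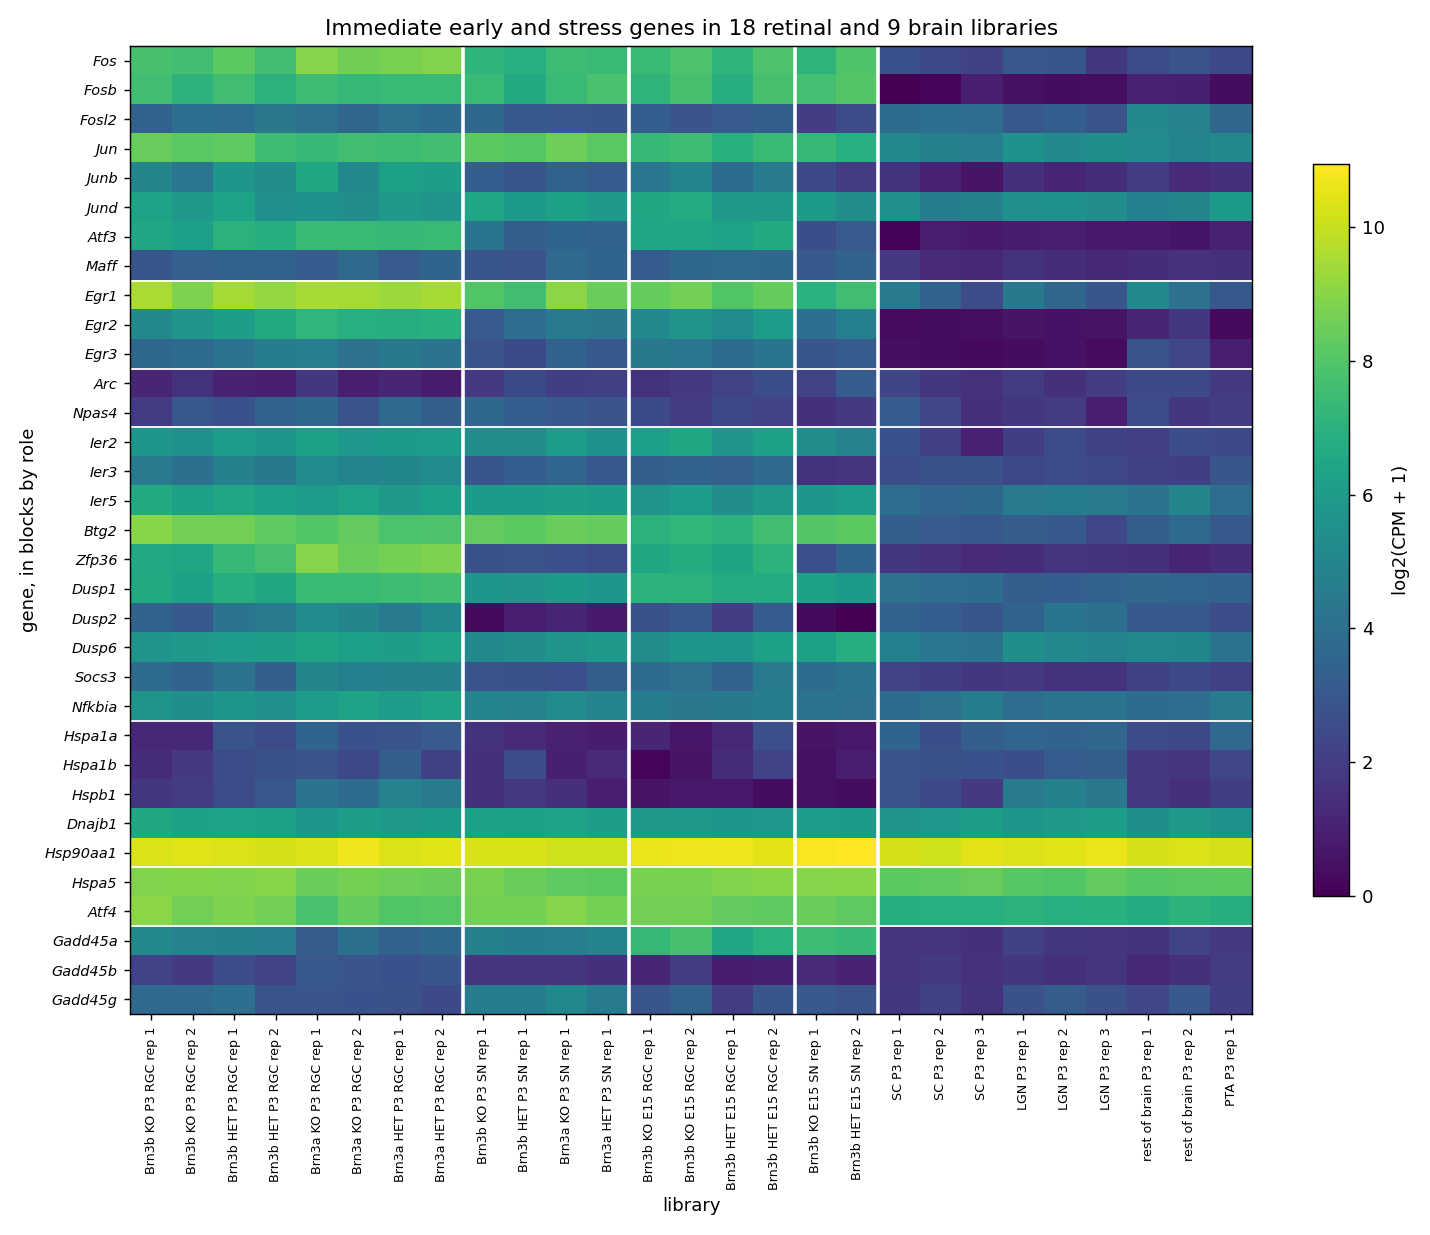
Levels of the 33 genes in 27 libraries as log2(CPM + 1), with genes in blocks by role and white lines between RGC at P3, SN at P3, RGC at E15, SN at E15 and brain. Fosb, Egr2 and Atf3 are low in the 9 brain columns, while Dnajb1, at 52.6 to 94.05 CPM in retina and 42.9 to 70.0 CPM in brain, changes little in shade.

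Levels of different genes were compared per transcript length, as TPM (length-scaled shares of all transcripts) computed from the estimated counts. In RGC at P3 the median over 8 libraries was 1811 TPM for Hsp90aa1, 414 TPM for Egr1, 387.5 TPM for Atf4, 324 TPM for Hspa5, 289.5 TPM for Fos and 284.5 TPM for Zfp36. At the low end stood Arc at 0.700 TPM, Hspa1b at 2.85 TPM and Hspa1a at 3.64 TPM, so the activity gene Arc was the lowest of the 33 on this scale. In brain the medians were 5.98 TPM for Fos, 7.35 TPM for Egr1 and 0.175 TPM for Fosb, but 964 TPM for Hsp90aa1 and 142 TPM for Atf4.

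Promoter sequences of RefSeq (GRCm38.p6; 250 bases before to 50 after a start site, 300 in all) were available for 28 of the 33 genes. Arc, Egr1, Egr3, Hsp90aa1 and Ier2 had no entry. The sequences below, read 5′ to 3′ on the strand of the gene, are examples that carry the motifs named next, with those matches in capitals. Further matches (the AP-1 site and TGACG in Hspa5, a further TGACG in Dusp1) are left in lower case. Dusp2, Atf3 and Junb, with large RGC over SN differences below, also had windows, which are not shown. In Zfp36 the capitals are, in order, an EGR site (GCGNGGGCG) and a CArG box, the core of the serum response element. In Fos they are TGACG, the core of the cAMP response element, and in Btg2 the full element TGACGTCA followed by an EGR site. Dusp1 shows the full TGACGTCA, Nfkbia a kappaB site (on the other strand) and Hspa5 an ER stress response element.
Zfp36, chr7:28379179-28379478, minus strand: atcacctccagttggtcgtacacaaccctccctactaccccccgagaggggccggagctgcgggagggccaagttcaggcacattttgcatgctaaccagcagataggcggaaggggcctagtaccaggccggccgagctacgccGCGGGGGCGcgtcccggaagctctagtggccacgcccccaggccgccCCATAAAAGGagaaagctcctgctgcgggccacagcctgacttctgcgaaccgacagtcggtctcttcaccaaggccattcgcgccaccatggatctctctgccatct
Fos, chr12:85473640-85473939, plus strand: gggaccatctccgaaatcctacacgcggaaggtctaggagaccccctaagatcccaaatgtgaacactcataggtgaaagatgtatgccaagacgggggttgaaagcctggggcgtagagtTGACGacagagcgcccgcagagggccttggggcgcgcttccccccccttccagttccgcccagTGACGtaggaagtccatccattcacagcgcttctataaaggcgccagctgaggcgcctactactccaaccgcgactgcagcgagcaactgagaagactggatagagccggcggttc
Btg2, chr1:134079106-134079405, minus strand: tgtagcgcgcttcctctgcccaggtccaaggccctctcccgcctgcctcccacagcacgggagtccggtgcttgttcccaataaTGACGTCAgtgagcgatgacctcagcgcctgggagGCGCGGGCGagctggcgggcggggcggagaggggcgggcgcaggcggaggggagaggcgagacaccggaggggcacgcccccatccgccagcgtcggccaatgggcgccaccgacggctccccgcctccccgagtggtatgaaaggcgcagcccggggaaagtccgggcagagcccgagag
Dusp1, chr17:26508423-26508722, minus strand: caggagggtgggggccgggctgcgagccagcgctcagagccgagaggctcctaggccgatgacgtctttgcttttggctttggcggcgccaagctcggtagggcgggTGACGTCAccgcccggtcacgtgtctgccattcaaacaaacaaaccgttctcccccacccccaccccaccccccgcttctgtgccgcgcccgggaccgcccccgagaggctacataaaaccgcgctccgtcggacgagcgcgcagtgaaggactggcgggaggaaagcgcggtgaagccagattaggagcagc
Nfkbia, chr12:55492598-55492897, minus strand: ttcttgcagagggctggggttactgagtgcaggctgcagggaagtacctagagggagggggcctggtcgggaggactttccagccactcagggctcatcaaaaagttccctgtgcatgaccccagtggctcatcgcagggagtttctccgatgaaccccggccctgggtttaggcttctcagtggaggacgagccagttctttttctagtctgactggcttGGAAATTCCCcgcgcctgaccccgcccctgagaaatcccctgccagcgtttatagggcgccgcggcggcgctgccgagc
Hspa5, chr2:34771840-34772139, plus strand: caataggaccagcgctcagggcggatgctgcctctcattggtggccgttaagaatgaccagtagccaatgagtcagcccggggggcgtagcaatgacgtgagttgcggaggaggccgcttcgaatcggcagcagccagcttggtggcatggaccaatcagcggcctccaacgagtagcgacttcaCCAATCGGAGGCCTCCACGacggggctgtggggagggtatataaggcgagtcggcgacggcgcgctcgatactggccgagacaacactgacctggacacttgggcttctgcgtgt

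Both strands of 32851 windows were searched, several genes having more than 1 window, and TGACG lies inside the full element. A CArG box was found in 1.63% of all windows and in 2 members (Zfp36 and Egr2). TGACGTCA was found in 1.79% of windows and in 3 members (Btg2, Dusp1 and Maff), and TGACG in 20.8% of windows and 14 members. An EGR site was found in 5.55% of windows and in 8 members: Btg2, Dusp2, Fosb, Fosl2, Gadd45b, Maff, Socs3 and Zfp36. The kappaB site was found in 0.411% of windows and in Nfkbia, and the ER stress element in 0.119% of windows and in Hspa5. The AP-1 site TGANTCA was found in 7.81% of windows and in Hspa5. The 3-unit heat shock element was found in 0.603% of windows and in no member window; TTCNNGAA, its 2-unit form, was found in 8.52% of windows and in Egr2. The members are counted as genes, and over the 27025 genes with a window the shares with a match in any window were 1.81% for the CArG box, 2.03% for TGACGTCA, 23.0% for TGACG, 6.27% for the EGR site, 0.466% for kappaB, 0.137% for the ER stress element, 8.97% for AP-1, and 0.662% and 9.6% for the 3-unit and 2-unit heat shock elements. The 2-unit heat shock search covered only the order of units named above. The opposite order was not searched, and the Hspa1a and Hspa1b windows given below each contain it. The 2-unit match in Egr2 alone therefore does not mean that heat shock members lack 2-unit elements. A match describes the letters in a window and shows no binding.

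Hspa1a and Hspa1b, neighbouring HSP70 genes, have nearly the same promoter. Their 300-base windows were identical at 296 positions (98.7%), and the capitals here mark the 4 that differ.
Hspa1a, chr17:34972107-34972406, minus strand: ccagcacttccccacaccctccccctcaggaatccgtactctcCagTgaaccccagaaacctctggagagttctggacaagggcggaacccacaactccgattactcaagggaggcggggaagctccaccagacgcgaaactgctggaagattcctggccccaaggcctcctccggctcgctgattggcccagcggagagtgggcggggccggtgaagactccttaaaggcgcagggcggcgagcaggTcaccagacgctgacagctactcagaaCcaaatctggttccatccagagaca
Hspa1b, chr17:34959189-34959488, minus strand: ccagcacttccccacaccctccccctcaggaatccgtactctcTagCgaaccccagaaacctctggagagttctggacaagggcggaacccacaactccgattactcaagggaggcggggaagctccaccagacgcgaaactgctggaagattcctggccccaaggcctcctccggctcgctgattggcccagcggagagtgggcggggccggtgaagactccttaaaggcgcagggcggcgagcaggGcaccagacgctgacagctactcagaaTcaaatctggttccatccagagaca
Of all 76-base stretches of the annotated Hspa1a transcript, 52.5% also occurred in Hspa1b (55.6% the other way), so reads of that length could be divided between them and their separate values are uncertain. Jun, Junb, Jund, Zfp36, Dusp1, Hspa1a and Gadd45a share exonic bases with a gene on the opposite strand; the libraries were stranded, but whether counting used strand is not given in the sources used here.

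The largest differences between the AP-positive fraction and the unbound cells at P3 were in Zfp36 and Dusp2, which dampen the response. At this age, 19 of the 33 genes were higher in RGC than in SN libraries and 5 were lower, and the median log2 fold change was 0.81 (edgeR quasi-likelihood test, Benjamini-Hochberg adjusted p under 0.05 over 16954 genes; 8 RGC and 4 SN libraries). Over all genes tested 27.3% were higher, 27.7% were lower, 55% were called in all, and the median was -0.03. In 11 members every RGC library was above every SN library (13.7% of all genes) and in 2 every RGC library was below (10.3%). RGC cells were bound by antibody-coated beads and SN cells were not, so cell type and capture cannot be told apart at either age.

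Zfp36, which encodes the mRNA decay factor tristetraprolin (ENSMUSG00000044786, chr7:28376784-28379255), was 85.3 to 494 CPM (median 275) in the 8 RGC libraries at P3, against 5.88, 5.47, 5.30 and 4.85 CPM in the 4 SN libraries. No RGC library came near the SN range, and the log2 fold change was 5.45 ± 0.23 (SE), with an adjusted p of 7.1e-10. Dusp2, a nuclear MAP kinase phosphatase (ENSMUSG00000027368, chr2:127336159-127338376), was 7.25 to 38.7 CPM (median 21.8) in RGC, against 1.16, 0.889, 0.733 and 0.211 CPM in SN, a log2 difference of 4.75 ± 0.45 (adjusted p = 1.6e-06). Its relative Dusp1 was 75.9 to 197 CPM (median 138) in RGC, against 61.9, 52.1, 52.0 and 50.8 CPM in SN, with a log2 fold change of 1.27 ± 0.10 (adjusted p = 2.9e-07). Dusp6, which acts on ERK in the cytoplasm, rose by 0.52 ± 0.15 with overlapping ranges. Of the 10 early response and feedback genes 7 were higher and none lower; the other 3 called were Ier3 (1.67 ± 0.17), the cytokine inhibitor Socs3 (1.48 ± 0.24) and the NF-kappaB inhibitor Nfkbia (0.91 ± 0.12). Ier2, Ier5 and Btg2 did not pass, with log2 fold changes of 0.27, 0.27 and -0.01.

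AP-1 subunits were divided. Atf3, a stress-induced partner of Jun (ENSMUSG00000026628, chr1:191170296-191218039), was 71.45 to 171 CPM (median 144) in RGC at P3, against 18.1, 10.6, 10.2 and 8.98 CPM in SN (log2 fold change 3.41 ± 0.20, adjusted p = 1.5e-08). Junb was 18.5 to 90.5 CPM (median 47.3) in RGC, against 9.499, 8.51, 8.06 and 6.56 CPM in SN (2.55 ± 0.28, adjusted p = 5.0e-06). Both were above every SN library in all 8 RGC libraries. Fos was 192 to 496 CPM (median 335) in RGC, against 181, 168, 141.5 and 119.8 CPM in SN (1.03 ± 0.20, adjusted p = 0.00054), although SN was itself far above brain. Fosl2 rose by 0.81 ± 0.22. Jun went the other way: it was 161 to 341 CPM (median 193) in RGC, against 372, 291.5, 280.5 and 261 CPM in SN (-0.42 ± 0.14, adjusted p = 0.022). Fosb, Jund and Maff did not pass, with 0.02, -0.30 and 0.07.

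All 3 EGR genes were higher in RGC at P3. Egr2, known from Schwann cells and hindbrain, was 35.8 to 147 CPM (median 107) in RGC, against 21.4, 19.9, 13.97 and 7.79 CPM in SN (2.46 ± 0.28, adjusted p = 8.3e-06). Egr3 rose by 1.38 ± 0.20 and Egr1 by 0.99 ± 0.24, with Egr1 ranges overlapping (457 CPM in the lowest RGC library and 526.4 CPM in the highest SN library). The neuronal activity genes did not follow: Arc, a synaptic capsid-like protein, was 0.838 to 2.38 CPM (median 1.17) in RGC, against 4.57, 3.21, 3.09 and 2.48 CPM in SN (-1.36 ± 0.30, adjusted p = 0.0015), and Npas4, a neuron-specific activity factor, had -0.11 ± 0.28 and did not pass.

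Among heat shock genes Hspb1 (2.30 ± 0.30), Hspa1a (1.77 ± 0.40) and Hsp90aa1 (0.19 ± 0.07) were higher in RGC, while Hspa1b (0.92 ± 0.46) and Dnajb1 (-0.10 ± 0.08) did not pass. Hspb1 was 2.38 to 28.2 CPM (median 10.25) in RGC, against 2.57, 1.82, 1.81 and 0.874 CPM in SN; the lowest RGC libraries were those of Brn3b KO. Hspa5, the ER chaperone BiP, rose by 0.31 ± 0.09, and Atf4, the effector of the integrated stress response, fell by 0.30 on the log2 scale (SE 0.11). Gadd45 genes, which act in growth arrest and DNA repair, were split. Gadd45b was higher (1.24 ± 0.24), Gadd45a was lower (-0.56 ± 0.15), and Gadd45g was 4.36 to 14.8 CPM (median 6.27) in RGC, against 33.4, 23.6, 23.4 and 21.45 CPM in SN (-1.69 ± 0.24, adjusted p = 4.4e-05).

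**Figure D2:**
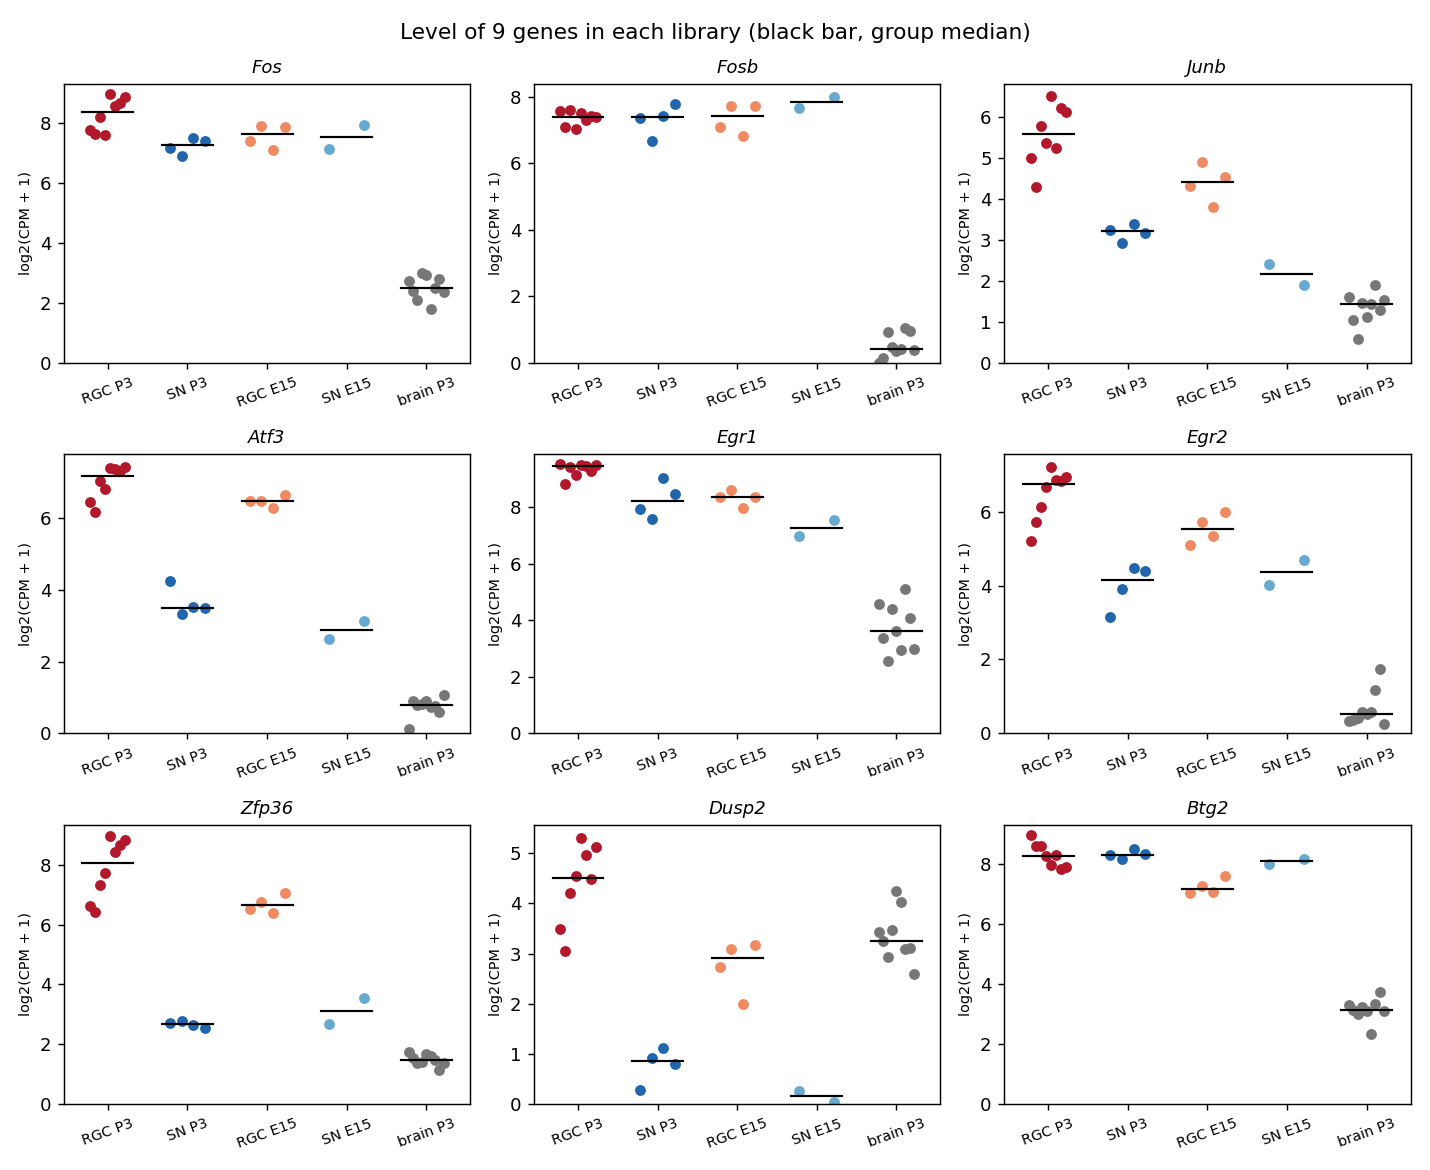
Levels of 9 genes as log2(CPM + 1), 1 point per library, with the group median as a black bar, for RGC and SN at P3, RGC and SN at E15, and brain at P3. Zfp36, Atf3 and Dusp2 separate RGC from SN at both ages, while Fos and Fosb are high in every retinal group.

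Markers of other cells moved in the same comparison. All 14 microglia and macrophage markers were higher in RGC at P3 (median log2 fold change 7.99). Among 10 endothelial and mural markers 4 were higher and 2 lower (median 0.82), and among 6 astrocyte markers 2 were higher and 1 lower (median -0.15). The part of these cell types in the members' differences was not tested. Splits of the RGC groups were chosen after seeing the data, and each compares fewer RGC libraries with SN. In place of 24 members, 18 were called with only the Brn3b groups and 26 with only the Brn3a groups. Only the HET groups gave 24 and only the KO groups 21. Over all genes, in place of 9325, these splits called 5010, 10617, 9181 and 7247, in the same order. With only the Brn3a groups, Hspa5 lost its call and Dnajb1, Hspa1b and Jund gained one. With only the Brn3b groups, Fos, Jun, Dusp6, Hspa1a, Hsp90aa1, Atf4 and Gadd45a lost their call, with log2 fold changes of 0.07 for Atf4 and 0.10 for Gadd45a. Ier5 gained a call, while Zfp36, Dusp2, Atf3 and Junb kept theirs. Hsp90aa1 lost its call without any one of 11 of the 12 P3 libraries, Jun and Atf4 without Brn3a KO SN, Dusp6 without Brn3b KO SN or Brn3b HET SN, and Hspa5 without Brn3a HET SN.

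At E15 Dusp2, Atf3, Zfp36 and Junb had the largest fold changes. Of the 33 genes 11 were higher in RGC and 2 were lower, with a median log2 fold change of 0.35 (4 RGC and 2 SN libraries), where 13.4% of all genes were higher, 13% lower and 26.3% called in all, with a median of -0.01. In 13 members every RGC library was above both SN libraries (18.9% of all genes), and in 4 below (22%).

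Zfp36 was 91.3 and 108 CPM in Brn3b KO RGC and 82.7 and 133 CPM in Brn3b HET RGC at E15, against 5.42 and 10.5 CPM in SN (3.70 ± 0.29, adjusted p = 2.1e-06). Atf3 was 88.2 and 88.2 CPM in Brn3b KO RGC and 77.2 and 99.8 CPM in Brn3b HET RGC, against 5.16 and 7.84 CPM in SN (3.76 ± 0.29, adjusted p = 1.6e-06). Dusp2 was 3.00 to 8.01 CPM in RGC, against 0.199 and 0.0279 CPM in SN, which were 7 and 1 estimated counts, so its log2 fold change of 5.69 ± 0.76 rests on very few SN reads. Each stood clear of SN in all 4 RGC libraries. Junb (2.53 ± 0.40), Ier3 (2.31 ± 0.26), Egr3 (1.28 ± 0.28), Egr2 (1.21 ± 0.37), Ier2 (1.07 ± 0.24), Egr1 (1.03 ± 0.34), Fosl2 (1.02 ± 0.32) and Dusp1 (0.78 ± 0.14) were also higher.

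Fos did not differ beyond its error at E15: it was 168 and 237 CPM in Brn3b KO RGC and 138 and 234.5 CPM in Brn3b HET RGC, against 139 and 241 CPM in SN (0.03 ± 0.27). No heat shock, ER stress or Gadd45 gene passed; Hspa1a had 1.60 ± 0.58 (adjusted p = 0.057) and Hsp90aa1 -0.27 ± 0.10 (adjusted p = 0.068). Btg2 was 129.7 and 152 CPM in Brn3b KO RGC and 132 and 192 CPM in Brn3b HET RGC, against 255 and 289.9 CPM in SN (-0.85 ± 0.16, adjusted p = 0.0034). Dusp6 was 40.8 to 73.1 CPM in RGC, against 73.4 and 113 CPM in SN (-0.79 ± 0.21, adjusted p = 0.015). Microglia and macrophage markers were again all higher in RGC (14 of 14, median 7.77), as were 4 of 6 astrocyte markers (median 1.89), while 7 of 12 progenitor and Mueller glia markers were lower (median -1.13); the part of these cell types was not tested. With the Brn3b HET SN library left out, 5 members were called (Junb, Atf3, Ier3, Zfp36 and Dusp2); Egr1 lost its call without any one library, and Egr2, Fosl2 or Dusp6 lost theirs without each of the other 5.

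**Figure D3:**
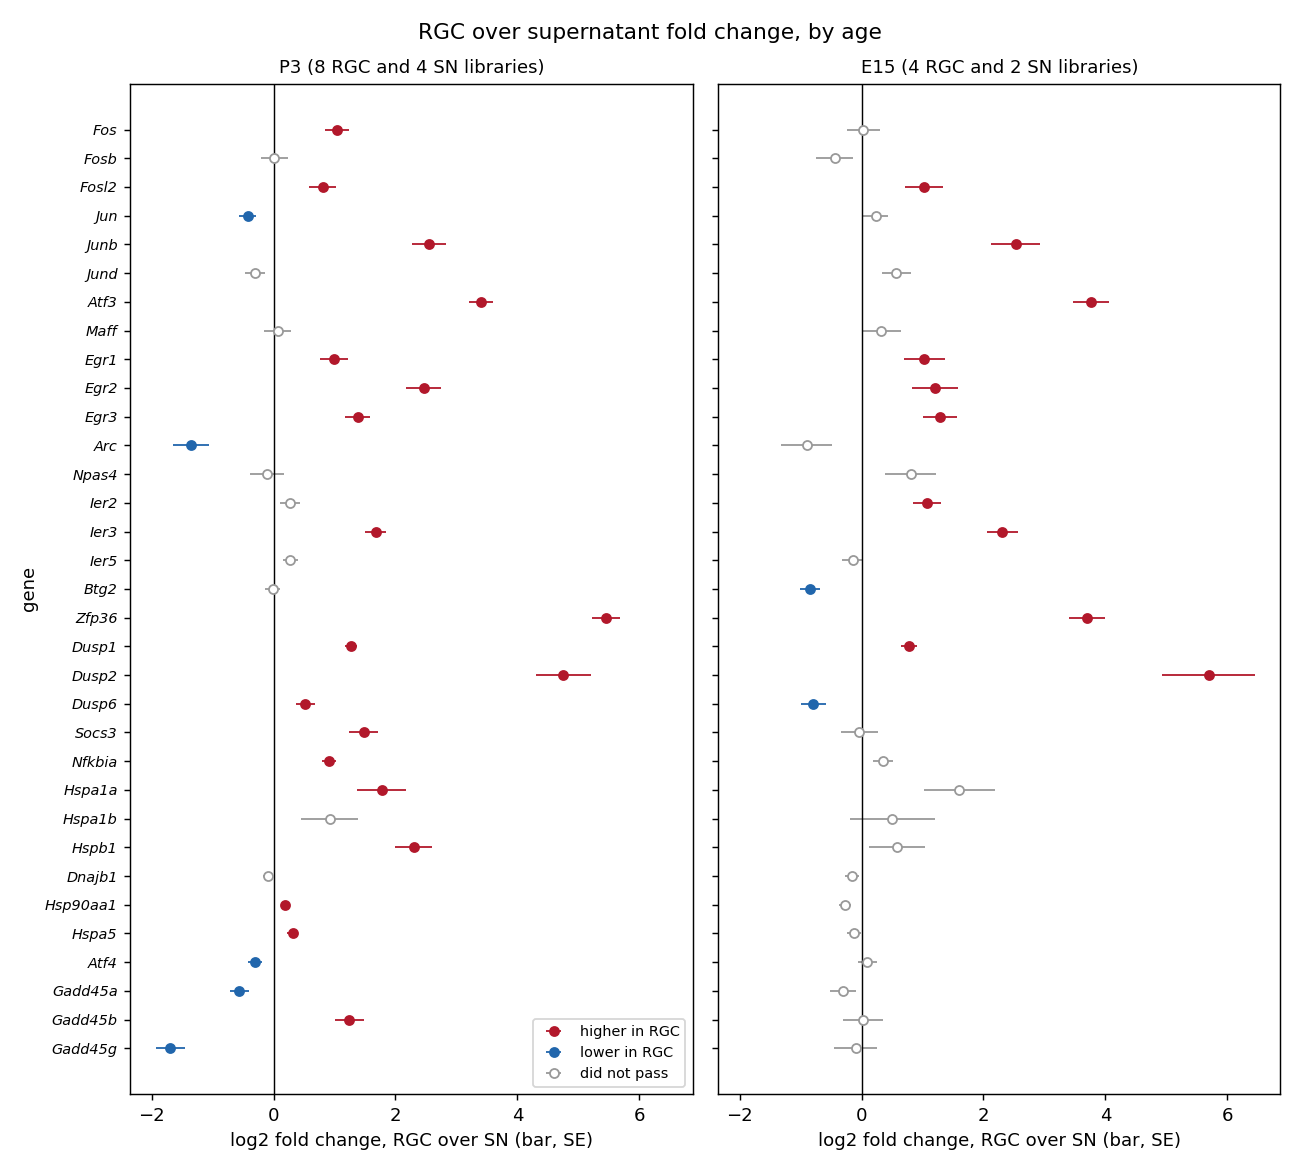
Log2 fold change of RGC over SN for the 33 genes at P3 (left, 8 and 4 libraries) and E15 (right, 4 and 2 libraries), with bars of 1 SE; red is higher and blue lower at an adjusted p under 0.05, and open points did not pass. Zfp36, Dusp2, Atf3 and Junb lie above 2 at both ages, and Btg2 and Dusp6 are blue in the right panel but not in the left.

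Whether the RGC over SN difference changed with age was tested as an interaction, with Brn3b RGC libraries at both ages; the SN side held all 4 SN libraries at P3, of which 2 are from Brn3a mice, and the 2 Brn3b ones at E15. It passed for 3 members, all more positive at P3, where 6.87% of all genes passed, 3.71% more positive and 3.16% more negative: Btg2 (1.15 ± 0.22 on the log2 scale, adjusted p = 0.011), Dusp6 (1.14 ± 0.27, adjusted p = 0.026) and Hspa5 (0.63 ± 0.16, adjusted p = 0.032). Without the Brn3b HET SN library at E15 none of them passed. Hspa5 lost its call without any one of 10 further libraries and Dusp6 without any one of 7. With only the Brn3b SN libraries, a choice made after seeing the data, Btg2 (1.18) and Dusp6 (1.33) passed and Hspa5 (0.40) did not, and 263 genes were called in place of 1165.

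Set against E15, more of these genes were higher than lower at P3. In SN cells 11 members were higher at P3 than at E15 and 5 were lower (median 0.37; 15.6% higher, 17.5% lower and 33.1% called among all genes; 4 and 2 libraries). Dusp2 and Hspb1 rose on low levels (2.69 ± 0.78 and 2.32 ± 0.46), and Ier3 (2.02 ± 0.25), Npas4 (1.96 ± 0.44), Gadd45g (1.92 ± 0.39), Junb (1.2 ± 0.38), Jun (1.16 ± 0.22), Fosl2 (1.07 ± 0.32), Egr1 (1.06 ± 0.34), Atf3 (0.88 ± 0.25) and Nfkbia (0.85 ± 0.17) with them. Gadd45a fell to 24.4, 29.7, 26.5 and 23.6 CPM at P3, against 186.5 and 159 CPM at E15 (-2.73 ± 0.21, adjusted p = 2.6e-06). Socs3 (-1.26 ± 0.30), Dusp6 (-1.005 ± 0.20), Hsp90aa1 (-0.69 ± 0.10) and Hspa5 (-0.56 ± 0.12) were also lower at P3.

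Of the 4 SN libraries at P3, 2 are from Brn3a mice, whereas both at E15 are from Brn3b mice, so line and age are in part confounded in this comparison. Egr1 was 247.8 and 190.6 CPM in Brn3b KO and Brn3b HET SN and 526.4 and 351.8 CPM in Brn3a KO and Brn3a HET SN at P3, against 126.1 and 189.1 CPM in Brn3b KO and Brn3b HET SN at E15. The Brn3b HET values of both ages were thus nearly equal, and the Brn3a libraries were the highest. With only the Brn3b SN libraries 14 members were called; Egr1 (0.52), Junb (1.12) and Dusp2 (2.25) lost their call and Hspa1b gained one. Without Brn3b HET SN at E15 Dusp2, Dusp6, Egr1, Junb and Socs3 lost their call, without Brn3b KO SN at E15 Atf3, Egr1 and Fosl2, and without Brn3a KO SN at P3 Egr1 and Junb; none was lost without any one of the other 3. Markers of other cells moved in the same comparison: 10 of 15 ganglion cell markers were lower at P3 and 1 higher (median -1.65), 5 of 10 endothelial and mural markers were higher and 1 lower (median 1.465), and 3 of 6 astrocyte markers (median 2.61) and 3 of 14 microglia and macrophage markers (median 1.42) were higher. Their part was not tested.

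In Brn3b KO RGC 8 members were higher at P3 than at E15 and 2 were lower (median 0.24; 25.4% of all genes called, 14.4% higher and 11.1% lower, 2 and 2 libraries), and in Brn3b HET RGC 14 were higher and 2 lower (median 0.70; 28.8% called, 16.6% higher and 12.3% lower). Gadd45a fell in both, to 34.8 and 27.6 CPM at P3 against 155 and 213 CPM at E15 in Brn3b KO RGC (-2.54 ± 0.30), and to 25.8 and 24.4 CPM against 89.0 and 124 CPM in Brn3b HET RGC (-2.08 ± 0.29). Btg2 rose in both, to 505 and 385 CPM at P3 against 129.7 and 152 CPM at E15 in Brn3b KO RGC (1.68 ± 0.22), and to 387 and 306 CPM against 132 and 192 CPM in Brn3b HET RGC (1.10 ± 0.22). Hspb1 (2.18 ± 0.40 in KO and 3.56 ± 0.41 in HET), Nfkbia (1.13 ± 0.18 and 1.12 ± 0.18), Ier3 (0.93 ± 0.25 and 1.11 ± 0.25), Jun (0.87 ± 0.23 and 0.75 ± 0.23), Egr1 (0.77 ± 0.23 and 1.15 ± 0.23) and Dnajb1 (0.55 ± 0.15 and 0.51 ± 0.15) rose in both genotypes. Gadd45b (2.265 ± 0.42), Dusp2 (1.86 ± 0.43), Junb (1.43 ± 0.44), Fosl2, Zfp36, Ier5 and Atf3 passed in HET RGC, and Arc fell there by 2.16 on the log2 scale (SE 0.54); Hspa1b rose (2.66 ± 0.68) and Dusp1 fell by 0.55 (SE 0.15) in KO RGC. When the nearly identical Hspa1a and Hspa1b were summed, the sum did not pass there, leaving 9 members. Some rises start from few reads at E15. In Brn3b KO RGC at that age Hspa1b held 5 and 16 estimated counts and Hspb1 15 and 22. In Brn3b HET RGC at E15 Hspb1 held 20 and 8 and Gadd45b 22 and 27.

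A difference between the genotypes in the change with age passed for no member in the interaction test, in which 0.192% of all genes passed, 0.006% higher and 0.186% lower; 8 members had an unadjusted p under 0.05 by edgeR, and DESeq2 called 0. Among microglia and macrophage markers 6 of 14 rose with age in KO RGC (median 0.62) and 14 of 14 in HET RGC (median 1.47). Among endothelial and mural markers 7 of 10 rose in KO RGC (median 3.18) and 8 of 10 in HET RGC (median 2.44). Of 12 progenitor and Mueller glia markers 1 rose and 2 fell in KO RGC (median -0.17), and 1 rose and 6 fell in HET RGC (median -1.42). Of 15 ganglion cell markers 3 rose and 7 fell in KO RGC (median -0.46), and 3 rose and 5 fell in HET RGC (median -0.19). The part of these cell types was not tested. In HET RGC 8 members lost their call without E15 replicate 1, P3 replicate 1 or P3 replicate 2, among them Atf3, Dnajb1, Ier5, Junb and Zfp36 each time; Dnajb1 lost it without E15 replicate 2 too. In KO RGC, leaving out any one library kept Btg2, Nfkbia, Hspb1 and Gadd45a, with 4 to 8 members called.

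**Figure D4:**
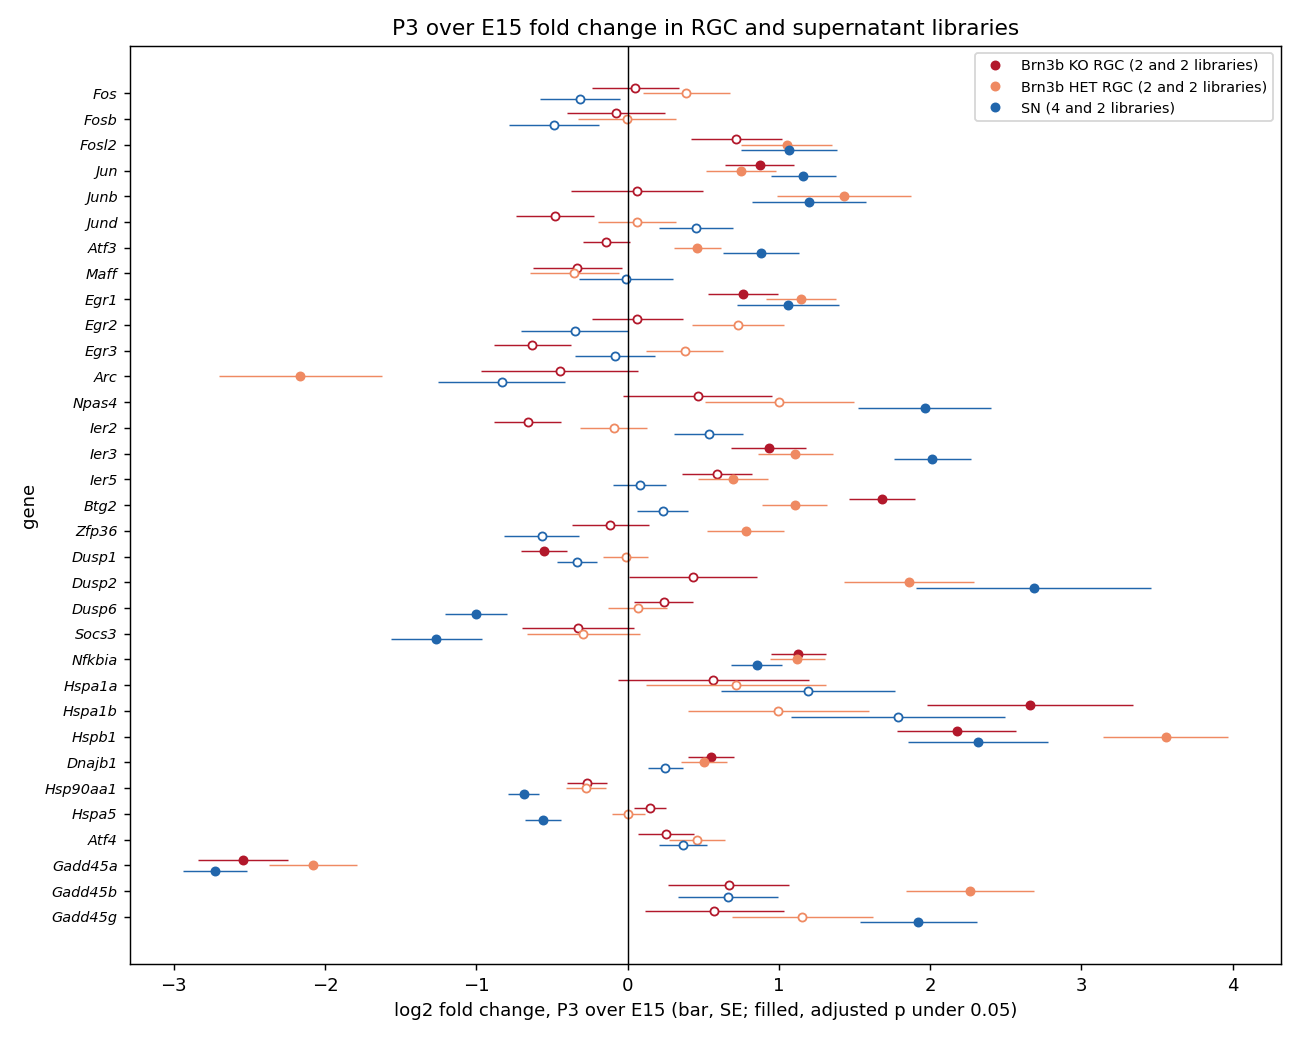
Log2 fold change of P3 over E15 for the 33 genes in Brn3b KO RGC, Brn3b HET RGC and SN libraries, with bars of 1 SE; filled points have an adjusted p under 0.05. Gadd45a is near -2 to -3 in all 3, and Hspb1 and Ier3 are above 0 in all 3.

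No member passed the edgeR threshold between KO and HET RGC of either Brn3 gene. Between Brn3a KO and Brn3a HET RGC at P3, edgeR called 0 members (0.018% of all genes, 0.012% higher and 0.006% lower) and DESeq2 called none; 0 members had an unadjusted p under 0.05. Zfp36 was 494 and 342 CPM in Brn3a KO RGC, against 406 and 458 CPM in Brn3a HET RGC, and Fos was 496 and 376 CPM in KO, against 410.2 and 464 CPM in HET, so the ranges overlapped.

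Between Brn3b KO and Brn3b HET RGC at P3 edgeR called 0 members (3.41% of all genes, 0.264% higher and 3.15% lower), with a median of -0.21 over the members; 7 members had an unadjusted p under 0.05. DESeq2 called 5, all lower in KO: Zfp36, Atf3, Egr2, Hspb1 and Hspa1a. Zfp36 was 96.3 and 85.3 CPM in Brn3b KO RGC, against 160.1 and 209 CPM in Brn3b HET RGC (-1.01 ± 0.26, adjusted p = 0.065 by edgeR). Atf3 was 86.4 and 71.45 CPM in KO, against 131 and 112 CPM in HET (-0.61 ± 0.16, adjusted p = 0.067). In these pairs both KO libraries were below both HET libraries. The microglia and macrophage markers were also lower there, 11 of 14 past the threshold, with sums of 1479 and 1143 CPM in KO and 2468 and 2964 CPM in HET, as were 11 of 15 ganglion cell markers; their part was not tested. In the simulated version of this comparison 19.4% of 2-fold changes were recovered, so differences of that size could be missed. That rate is over genes of all levels and is not specific to the members.

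At E15, Brn3b KO against HET RGC gave 0 calls among members (1.85% of all genes, 0.666% higher and 1.18% lower); 5 had an unadjusted p under 0.05. DESeq2 called 1, Hspa1b, which was 0.1585 and 0.489 CPM in KO, against 1.60 and 3.565 CPM in HET (-2.98 ± 0.68, adjusted p = 0.065 by edgeR), at levels of few reads and with reads shared with Hspa1a. A difference in the KO effect at P3 between the Brn3b and Brn3a genes passed for no member (0.012% of all genes passed, 0.006% higher and 0.006% lower); 6 members had an unadjusted p under 0.05 by edgeR, and DESeq2 called 0.

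Between Brn3b HET and Brn3a HET RGC at P3, 1 member was higher and 3 were lower (3.85% of all genes called, 2.03% higher and 1.82% lower). Zfp36 was 160.1 and 209 CPM in Brn3b HET, against 406 and 458 CPM in Brn3a HET (-1.23 ± 0.26, adjusted p = 0.038). Dusp1 was 113 and 94.2 CPM in Brn3b HET, against 183 and 197 CPM in Brn3a HET (-0.87 ± 0.15, adjusted p = 0.025). Hspb1 was 4.78 and 6.75 CPM in Brn3b HET, against 28.2 and 22.2 CPM in Brn3a HET (-2.13 ± 0.36, adjusted p = 0.021). All 3 were lower in both Brn3b libraries. Gadd45a was 25.8 and 24.4 CPM in Brn3b HET, against 9.40 and 11.4 CPM in Brn3a HET (1.27 ± 0.29, adjusted p = 0.045). No member was called without any one of the 4 libraries, and DESeq2 called 10 members with all of them. Microglia and macrophage markers summed to 2468 and 2964 CPM in Brn3b HET and 3517 and 3902 CPM in Brn3a HET. Of these 14 markers 1 was lower in Brn3b HET (median log2 fold change -0.485). Of 15 ganglion cell markers 2 were lower (median -1.02), and of 6 astrocyte markers 1 was lower (median 0.26). No progenitor and Mueller glia marker (median 1.18) and no endothelial and mural marker (median 1.29) passed. The part of these cell types was not tested.

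**Figure D5:**
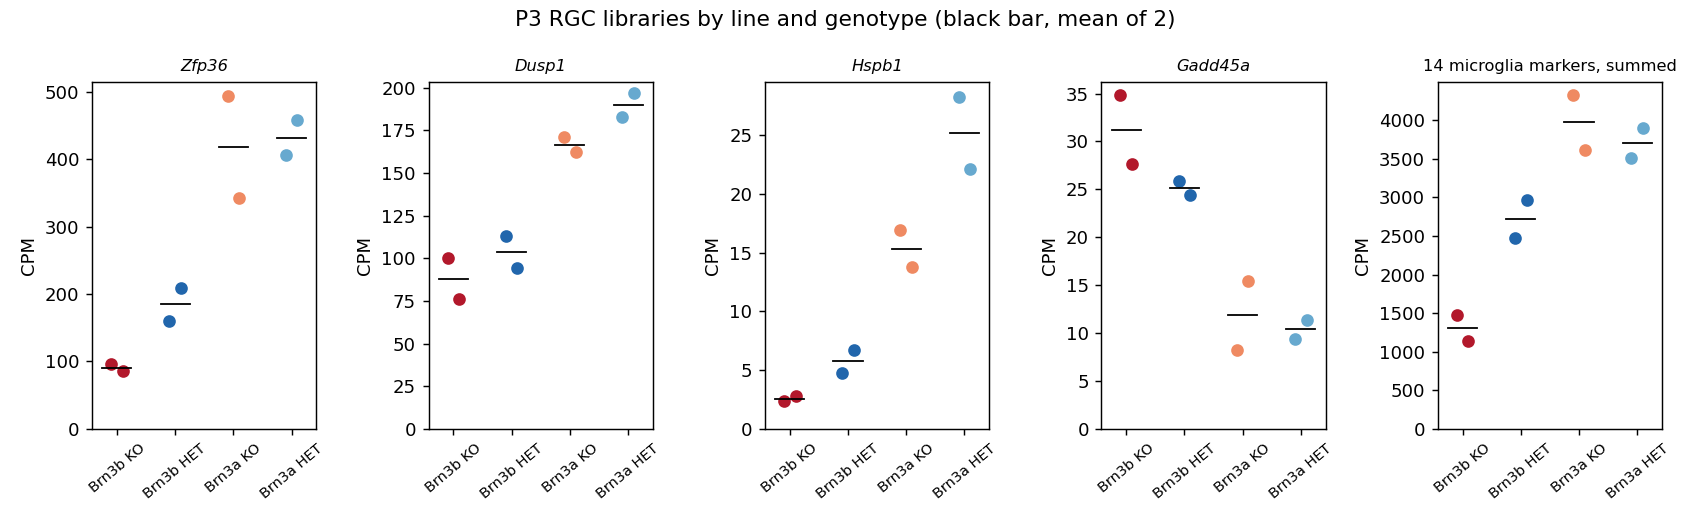
CPM of Zfp36, Dusp1, Hspb1 and Gadd45a, and the summed CPM of 14 microglia and macrophage markers, in the 8 RGC libraries at P3 by line and genotype (1 point per library, black bar the mean of 2; every axis starts at 0). Zfp36, Dusp1, Hspb1 and the marker sum are lower in the 4 Brn3b libraries than in the 4 Brn3a libraries, and Gadd45a is higher.

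In the undissociated brain a few members differed by region. Between SC and LGN 2 members were higher and 4 lower (10.2% of all genes called, 4.41% higher and 5.78% lower; 3 and 3 libraries). Hspb1 was 6.29, 4.34 and 2.47 CPM in SC, against 22.5, 26.2 and 20.0 CPM in LGN (-2.39 ± 0.30, adjusted p = 0.0011), and it was 1.81 and 2.49 CPM in the rest of the brain and 3.10 CPM in the PTA library. LGN thus stood apart from every other brain library. Fosl2 was 13.4, 14.8 and 13.9 CPM in SC, against 7.01, 8.77 and 6.08 CPM in LGN (0.94 ± 0.18, adjusted p = 0.0096), and 34.8 and 27.5 CPM in the rest of the brain. Dusp1 was higher in SC (0.64 ± 0.15), and Ier5 (-0.89 ± 0.21), Dusp6 (-0.76 ± 0.19) and Gadd45g (-1.33 ± 0.32) were lower. With the replicate number of the titles as a block, Jun was called as well (7 members). Leaving out 1 library gave 2 to 6 members, with Fosl2 and Hspb1 called each time; Gadd45g lost its call in all 6 such fits, Dusp1 and Ier5 in 5 of them and Dusp6 in 4.

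Against the rest of the brain, SC had 1 member higher and 4 lower (6.94% of all genes called, 3.19% higher and 3.75% lower), and LGN 3 higher and 2 lower (10.9% called, 5.76% higher and 5.17% lower). Egr3 was 0.345, 0.289 and 0.165 CPM in SC and 0.292, 0.442 and 0.246 CPM in LGN, against 6.13 and 3.96 CPM in the rest of the brain (-4.20 ± 0.51 and -3.89 ± 0.49). These Egr3 levels were 2 to 4 estimated counts in SC and 3 to 6 in LGN, so both fold changes rest on few reads. Fosl2 was lower in SC (-1.15 ± 0.19) and in LGN (-2.09 ± 0.19). Egr2 (-2.565 ± 0.58) and Ier5 (-0.95 ± 0.23) were lower in SC, where Egr2 held only 3 or 4 estimated counts per library. In LGN Hspb1 (3.41 ± 0.38), Hspa1b (1.62 ± 0.30) and Hspa1a (1.23 ± 0.30) were higher, and Hspa1b was higher in SC (1.25 ± 0.29). In LGN Hspa1a lost its call without any one of the 5 libraries and Hspa1b without rest of brain replicate 2. In SC Hspa1b lost its call without any one of the 5, Egr2 in 4 of these fits and Ier5 in 3. With the replicate number as a block 3 members were called in SC: Egr2, Ier5 and Hspa1b lost their call and Dusp6 gained one. Both contrasts share the rest of brain libraries. The heat shock gene Dnajb1 and the chaperones Hsp90aa1 and Hspa5 passed in no brain comparison.

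Other genes of the same pathways give the setting at P3, where 27.3% of all genes were higher in RGC than in SN and 27.7% lower. Of 24 other immediate early genes 10 were higher in RGC than in SN and 5 were lower, with Klf2 (4.85 ± 0.36), Csrnp1 (3.09 ± 0.20) and Rhob (1.11 ± 0.10) up and Srf, the factor that binds the CArG box, down (-1.195 ± 0.12). Of 17 NF-kappaB and inflammatory early genes 15 were higher and none lower; the cytokine Tnf averaged 34.4 CPM in RGC and 0.0439 CPM in SN, and Icam1 33.7 CPM in RGC and 0.287 CPM in SN. Of 12 other dual-specificity phosphatases and MAPK feedback genes none was higher and 7 were lower, among them Dusp10 (-2.115 ± 0.15), Dusp16 (-2.05 ± 0.25) and Spry2 (-1.28 ± 0.13), whereas the members Dusp1, Dusp2 and Dusp6 rose. Of 10 later activity genes of neurons 9 were tested and 7 were higher, led by Nrn1 (3.00 ± 0.34) and Pcsk1 (2.87 ± 0.41). Of 18 other heat shock genes 7 were higher and 3 lower, and of 16 unfolded protein and integrated stress genes 4 were higher and 3 lower, with Ppp1r15a (1.39 ± 0.11) and Asns (1.815 ± 0.20) up. At E15, 13.4% of all genes were higher and 13% lower. In the same order of lists, the counts were 9 higher of 24, 12 higher of 17, and 2 higher and 1 lower of 12. Then came 1 higher and 1 lower of 9 tested, 0 higher and 4 lower of 18, and 2 higher and 2 lower of 16. Tnf and Icam1 are made by activated microglia and macrophages, whose markers moved with them; this was not tested.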

How the data were processed

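Stranded mRNA libraries were sequenced as 76-base single reads (retina) or 125-base paired reads (brain), per the labels' protocols. The submitters' processing notes name Trimmomatic 0.32, Bowtie2 2.2.1, eXpress 1.3.1 and the GRCm38.p3 build. The authors deposited estimated counts per transcript from eXpress; whether counting used strand is not given in the sources used here. Per the file headers, the authors' table also gives each transcript's length, used for TPM, and its GC content in percent, not used. Here 88198 transcripts were summed to 30735 genes and rounded, and the symbols of 27 date-like names were restored.

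3 models were fitted with edgeR 4.0.16 in R 4.3.3: all 18 retinal libraries (16954 genes, 10 residual degrees of freedom), the 12 RGC libraries (16673 genes, 6) and the 9 brain libraries (15288 genes, 5). Each used TMM scaling, the default low-count filter of edgeR (minimum count 10), the quasi-likelihood F test and Benjamini-Hochberg adjustment over all genes tested, with an adjusted p under 0.05 as the threshold. All 33 members passed the filter in each fit, and each SE was taken as the size of the log2 change over the root of its F value. DESeq2 1.42.0, other size factors, no filter, a replicate block, the compared groups alone and each library left out were the alternatives; Hspa1a and Hspa1b were also summed; fits on part of the RGC or SN groups and a crossed block were chosen after seeing the data. No test compares retina with brain.

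On simulated data for RGC over SN at P3 (16549 genes), 23.9% of 1.5-fold, 67.2% of 2-fold and 84.8% of 4-fold changes were recovered. Each simulation was a single draw in which few genes changed, picked at random from all genes that passed the filter. Replicate numbers pair the SC and LGN libraries by their titles: deviations from the group means correlated at 0.16, 0.37 and 0.33 in the 3 pairs. For RGC libraries of the same number the correlation of Brn3b KO with HET was 0.42 at E15 and -0.01 at P3. It was 0.20 for Brn3a KO with HET and -0.05 for Brn3b HET with Brn3a HET. Between P3 and E15 it was 0.18 in Brn3b KO and -0.26 in Brn3b HET. No such correlation was computed between RGC and SN libraries. With the replicate number as a block, RGC over SN gave 21 members at P3 (24 before) and 14 at E15 (13 before). Members and lists were chosen with earlier results of these data known. All members were candidates for naming; of the other pathway lists, up to 4 genes with the smallest adjusted p in a comparison could be named.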

Additional observations from a re-analysis of the deposited data

Results flagged for a closer look

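Among 99 checks of a gene within a group of 4 to 8 libraries, 6 found 1 library far from the others by Dixon's criterion at 95%; chance flags about 1 in 20 groups. Hsp90aa1 was 1660 CPM in Brn3a KO RGC replicate 2 at P3, above the other 7 RGC libraries. In the Brn3a KO SN library at P3, Dusp1 was 61.9 CPM, Nfkbia 38.0 CPM and Atf4 492.7 CPM, each above the other 3 SN libraries. Gadd45b was 1.75 CPM in the Brn3a HET SN library at P3, below the other 3. Hspa1a was 5.35 CPM in Brn3b HET RGC replicate 2 at E15, above the other 3 RGC libraries.

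The RGC over SN difference changed between P3 and E15, by the interaction test, for Btg2 (1.15 on the log2 scale), Dusp6 (1.14) and Hspa5 (0.63), each more positive at P3. None of these passed without the Brn3b HET SN library at E15.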

How the results depend on the processing

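Of 1474 recomputed log2 fold changes of called members, 1251 kept their direction and side of the threshold, 221 kept the direction and lost the threshold, and 2 reversed: with only the Brn3b RGC groups against SN at P3, Gadd45a was 0.10 and Atf4 0.068. The causes were not tested.

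Members called changed by over 1.5 times as follows. DESeq2 called 7 in the RGC over SN interaction with age (3 by edgeR), 5 for Brn3b KO over HET at P3 and 1 at E15 (0 by edgeR), and 10 for Brn3b HET over Brn3a HET (4 by edgeR). With no filter on low counts, 1 was called for Brn3b KO over HET at P3 and 1 at E15. Fitted on the compared groups alone, 10 were called for P3 over E15 in Brn3b HET RGC (16 before), 9 for Brn3b HET over Brn3a HET, and 3 for SC over the rest of the brain (5 before). The replicate block gave 3 members there.

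Over all genes, only the Brn3b RGC groups at P3 gave 5010 calls (9325 before), and at E15 only the HET RGC group gave 2236 and only the compared groups 866 (4467 before). DESeq2 gave 2342 for the interaction (1165), 56 for Brn3a KO (3), 1547 for Brn3b KO at P3 (569), 792 at E15 (308), 3026 for Brn3b HET over Brn3a HET (642), 348 for the Brn3b KO effect by age (32) and 334 for the KO effect by gene (2). No filter gave 5 for Brn3a KO, 1393 for Brn3b HET over Brn3a HET, 101 for the KO effect by age and 53 by gene. Only the compared groups gave 0 for Brn3a KO, 0 for Brn3b KO at P3, 22 at E15, 2949 for Brn3b HET RGC by age (4809), 3173 for Brn3b HET over Brn3a HET, 6 for the KO effect by age and 0 by gene. The replicate block gave 0 for Brn3a KO, 378 for Brn3b KO at P3, 12 for the KO effect by age and 1 by gene. Titles of retinal libraries give a replicate number and do not say what it pairs. Only the Brn3b SN libraries gave 263 for the interaction and 3599 for SN by age (5616 before). The crossed block for Brn3b HET RGC by age gave 13 members and 4226 genes.

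Leaving out 1 library at a time gave 22 to 24 members for RGC over SN at P3 (8464 to 9581 genes), 5 to 12 at E15 (686 to 4993), 0 to 5 for the interaction (154 to 2356), 11 to 16 for SN by age (2766 to 5255), 8 to 15 for Brn3b HET RGC by age (2849 to 3997), 4 to 8 for Brn3b KO RGC by age (2302 to 2796), 0 to 0 for Brn3b HET over Brn3a HET (31 to 84), 2 to 6 for SC over LGN (770 to 1462), 2 to 5 for SC over the rest (467 to 1066) and 3 to 5 for LGN over the rest (859 to 1548). No member was called in these fits for Brn3a KO (0 to 6 genes), Brn3b KO at P3 (1 to 549) or E15 (83 to 338), the KO effect by age (1 to 71) or by gene (0 to 2).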

Other observations

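In SN cells 12 of 18 other heat shock genes were lower at P3 than at E15 and none was higher, where 17.5% of all genes were lower and 15.6% higher, in the same comparison in which the members Hsp90aa1 and Hspa5 fell. Named examples are Hspe1, a mitochondrial cochaperonin (-1.06), Hsp90ab1, the constitutive HSP90 (-0.93), Hspa4 (-0.81) and Stip1, which links HSP70 to HSP90 (-0.76). Of 16 unfolded protein and integrated stress genes 6 were lower and 2 higher. Of 24 other immediate early genes 7 were higher and 4 lower, and of 12 MAPK feedback genes 5 were higher and 1 lower.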
